A study of Mus musculus with 8 samples.

Results

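Complement and coagulation are the chains of blood proteases that the liver keeps supplied. Most of the zymogens, cofactors and inhibitors of both cascades are made by hepatocytes and secreted into plasma. The receptors, membrane regulators and vessel wall cofactors that they meet are made by endothelial, myeloid and other cells. The genes described here were the 88 of 21878 genes in the deposited annotated count table whose pathway column names KEGG pathway mmu04610, complement and coagulation cascades. They were divided by textbook roles into 51 genes made by hepatocytes and 37 made mainly by other cells, and 81 of the 88 had enough counts to be tested.

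Liver RNA of C57BL/6 mice was sequenced in 8 libraries, all labelled with an age of 14 to 16 days. The groups were 2 Nfib-knockout (KO) tumors, 1 KO normal liver, 3 wild-type (WT) tumors and 2 WT normal livers. The KO mice are described as Nfib f/f Alb-Cre, in which the albumin promoter drives Cre, meant to remove floxed Nfib in cells that express albumin. For the WT mice the labels name no floxed allele and no Cre, and they give no agent that produced the tumors. Nfib encodes nuclear factor I/B, a transcription factor that binds TTGGC and GCCAA set 5 bases apart, or either arm alone. The labels do not say whether the libraries of a group came from separate animals, so every p-value below measures the spread between these libraries only.

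The libraries held 11912549 to 19965842 counts. Values called CPM below are the deposited counts scaled to the library total and then divided by the library's TMM factor, and levels of different genes are compared only in the deposited FPKM, which is per transcript length. Nfib was not lower in the libraries labelled knockout, at 83.8 ± 1.69 CPM (SD, n = 3) against 71.1 ± 16.2 CPM in WT libraries (SD, n = 5). Its log2 fold change of KO over WT was 0.27 ± 0.19 (SE; edgeR adjusted p = 0.748), and gene-wide counts cannot show the loss of single exons. KO and WT are therefore the names of the labels throughout. The hepatocyte markers in the table were abundant in every library, with a summed level of 94970 to 108700 CPM in KO libraries and 60880 to 187500 CPM in WT libraries. WT tumor 2 and WT normal 2 stood apart. Over all tested genes WT tumor 2 was the highest library at 30.4% and the lowest at 30.3%, and it held the fetal liver transcript Afp at 2345 CPM, which was at 573 CPM in WT tumor 1 and at most 17.5 CPM in the other 6 libraries. The Y-linked Ddx3y was at 50.6 CPM in WT normal 2, 5.89 CPM in WT tumor 2 and at most 0.123 CPM in the other 6 libraries. Results that rest on these libraries are given with and without them.

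A region upstream of the transcription start is shown for the 5 Serpina1 genes, because these near-identical inhibitor genes differed widely in how steady their transcripts were. Serpina1a to Serpina1e encode forms of alpha-1-antitrypsin, the main plasma inhibitor of neutrophil elastase, and lie together on chromosome 12. The windows below are 121 bases each on the minus strand, from the RefSeq promoter table on GRCm38.p6, and lie upstream of the annotated start of each gene. The capitals mark 12 bases that all 5 share and that open with GTTAAT, the motif core bound by hepatocyte nuclear factor 1, a factor known for its role in liver-specific transcription. The windows were cut around these 12 bases, not at a fixed distance from the start. The 12 bases begin 78 bases before the annotated start in Serpina1e and 16 to 27 bases before it in the other genes.
Serpina1a, chr12:103863625-103863745: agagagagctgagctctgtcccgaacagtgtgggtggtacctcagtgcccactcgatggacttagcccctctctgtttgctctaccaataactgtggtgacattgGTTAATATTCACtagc
Serpina1b, chr12:103738200-103738320: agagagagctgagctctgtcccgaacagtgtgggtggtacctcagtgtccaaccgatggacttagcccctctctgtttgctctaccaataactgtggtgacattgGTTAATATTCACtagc
Serpina1c, chr12:103904962-103905082: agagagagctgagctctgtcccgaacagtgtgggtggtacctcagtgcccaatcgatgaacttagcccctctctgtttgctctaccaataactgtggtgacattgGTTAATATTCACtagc
Serpina1d, chr12:103773634-103773754: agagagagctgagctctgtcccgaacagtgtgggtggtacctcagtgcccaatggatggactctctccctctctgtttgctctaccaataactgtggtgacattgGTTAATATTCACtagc
Serpina1e, chr12:103956960-103957080: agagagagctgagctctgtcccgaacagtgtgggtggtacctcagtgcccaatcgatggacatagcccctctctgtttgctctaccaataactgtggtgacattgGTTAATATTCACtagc

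Counted from 1 at the 5′ end of the Serpina1e window, A62T is the one difference from Serpina1e that the other 4 genes share. Serpina1d also differs by C54G, T63C, A64T, G65C and C66T, and is 95% identical to Serpina1e. The windows of Serpina1a and Serpina1c are 98.3% identical to that of Serpina1e, with A52C in Serpina1a and G59A in Serpina1c.

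The fibrinogen genes, which encode the 3 chains of the clot protein, lie together on chromosome 3 and are shown because all 3 chains peaked in the same library, WT tumor 2. Each line holds the 100 bases before the annotated start in the same table and build, with Fgb on the minus strand and the others on the plus strand. The capitals mark ATTAAC, which is GTTAAT read on the other strand.
Fga, chr3:83026053-83026152: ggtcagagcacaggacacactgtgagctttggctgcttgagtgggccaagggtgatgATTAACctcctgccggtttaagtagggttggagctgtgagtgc
Fgb, chr3:83049864-83049963: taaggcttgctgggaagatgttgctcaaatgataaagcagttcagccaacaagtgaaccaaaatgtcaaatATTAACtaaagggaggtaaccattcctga
Fgg, chr3:83007624-83007723: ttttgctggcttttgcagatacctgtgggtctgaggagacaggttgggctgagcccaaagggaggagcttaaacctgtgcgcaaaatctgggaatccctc

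The table held a promoter for 68 of the 88 genes. Within 250 bases before the start and on either strand, GTTAAT stood in 15 of 39 hepatocyte-made genes (38.5%) and 4 of 29 genes of other cells (13.8%). It stood in 7.49% of all 27025 genes with a promoter. A gene with several promoters was counted if any of its 250-base windows held the motif. Fga, Fgb and all 5 Serpina1 genes were among the 15, and the near-identical Serpina1 genes are not independent cases. The nuclear factor I palindrome, TTGGC and GCCAA with 5 bases between them, stood in 0 of the 68 and in 0.0444% of all genes with a promoter. Its single arm with 1 further base, TTGGCA, stood in 7.69% of the hepatocyte-made genes, 6.9% of the genes of other cells and 14.1% of all genes. These are matches of letters in a window and show no binding.

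In all libraries the plasma proteins made by hepatocytes were among the most abundant transcripts, while the genes of other cells were scarce. The 88 genes together took 6.34% to 7.49% of the counts in KO libraries and 5.96% to 9.67% in WT libraries, with the highest share in WT tumor 2 (95% Wilson interval 9.66% to 9.69%, which covers counting error only). Genes of other cells took at most 0.0906% of the counts, reached in WT normal 2. The median of the mean FPKM was 239 for the 51 hepatocyte-made genes and 1.86 for the 37 others, and 16 hepatocyte-made genes stood among the 100 genes of highest mean FPKM. Serpina1b led with a mean of 4084 FPKM, followed by Fgb at 3701 FPKM and C3, the protein on which all complement routes converge, at 2133 FPKM. Vtn, which encodes vitronectin, a plasma protein that also blocks the membrane attack complex, had a mean of 1299 FPKM and was the steadiest in level, with a highest library 1.22 times the lowest.

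The leading gene differed between roles. Among contact factors Kng1, the high-molecular-weight kininogen from which bradykinin is cut, had a mean of 1168 FPKM, and F12, which starts contact activation, had 239 FPKM. Of the common pathway, prothrombin (F2) had 908 FPKM and factor X (F10) 199 FPKM, and factor VII (F7), the partner of tissue factor in the extrinsic pathway, had 37.1 FPKM. Antithrombin (Serpinc1), the main inhibitor of thrombin, had 1114 FPKM and plasminogen (Plg), the zymogen that dissolves clots, had 930.5 FPKM. In complement, Mbl2, a lectin that recognises microbial sugars, had 476 FPKM, C4b 246 FPKM and factor B (Cfb), the alternative pathway protease, 442 FPKM. The hepatocyte-made terminal components of the membrane attack complex were lower, between 14.6 FPKM for C6 and 200.3 FPKM for C8g. C7, a further terminal component, was grouped with the genes of other cells. Of the genes of other cells, the 3 chains of C1q, made by macrophages, were highest at 58.9 to 75.8 FPKM, followed by Cd59a at 37.3 FPKM and Vsig4 at 23.5 FPKM. The genes C1rb, C1s2, Cd55b, F2rl2, F2rl3, Bdkrb1 and Zp3r did not pass the count filter, and Zp3r had no count in any library.

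**Figure D1:**
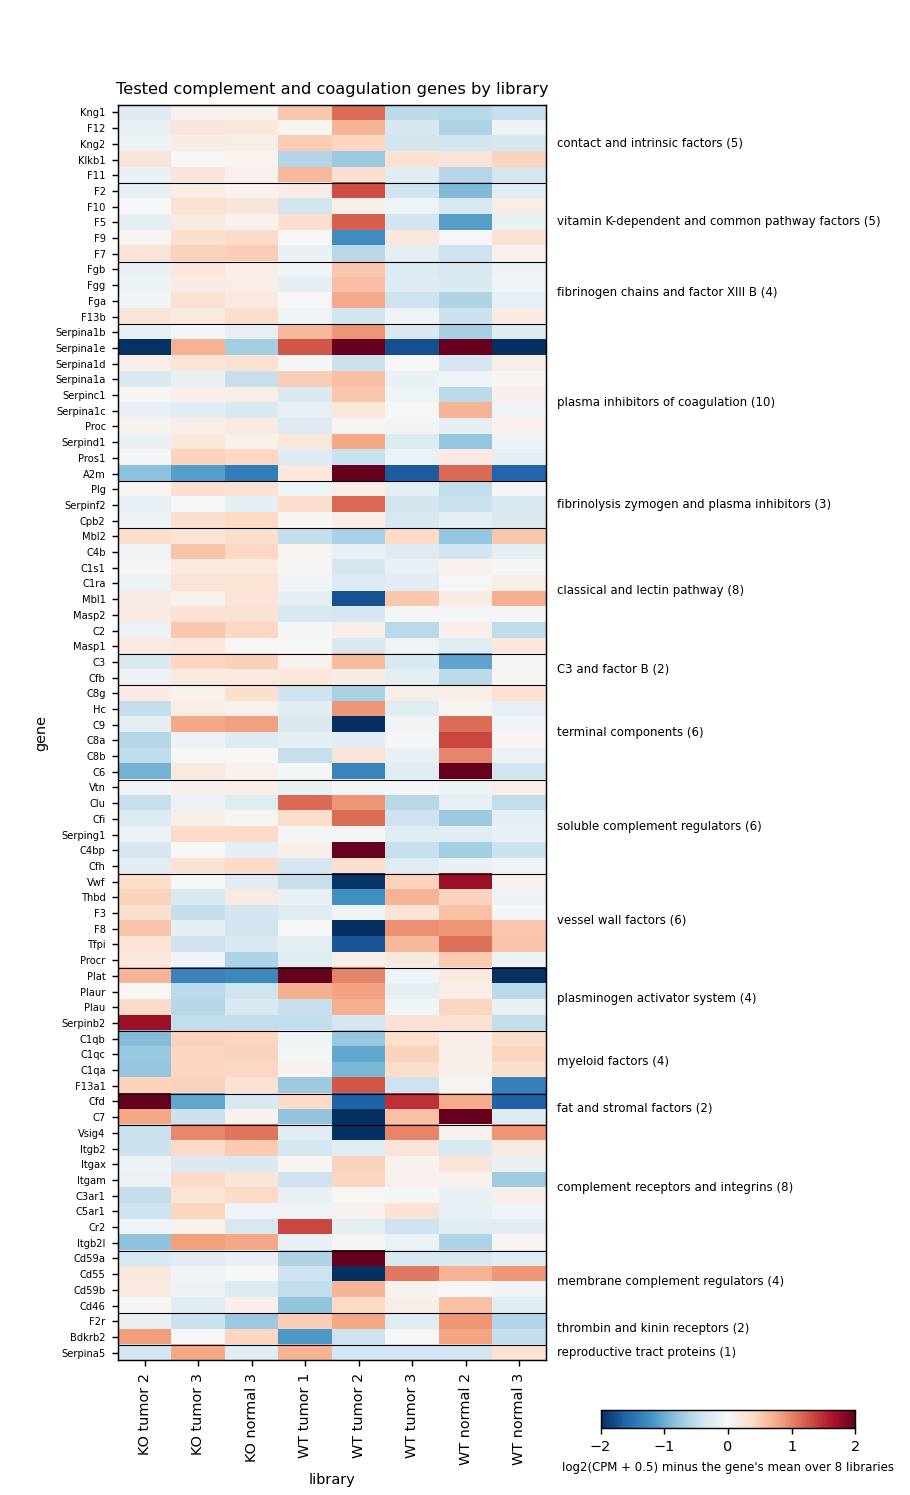
Colors show log2(CPM + 0.5) of the tested genes, all but 1, minus each gene's mean over the 8 libraries, in rows by role and columns by library, KO left of WT, with colors capped at 2 on either side. The strongest colors lie in WT tumor 2 and WT normal 2. WT tumor 2 was the highest library for 25 of the 81 genes (30.9%) and the lowest for 24 (29.6%). It was so for 30.4% and 30.3% of all tested genes.

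The first comparison asked whether KO livers differed from WT livers, with tissue in the model and 3 against 5 libraries. No gene of the cascades passed. edgeR's quasi-likelihood test called 0 of the 81 genes at an adjusted p of 0.05, as it called 0 of 14726 genes in all (0.0%), and the smallest adjusted p among the 81 was 0.705. DESeq2 called 0 of the 78 cascade genes to which it gave an adjusted p, with a smallest adjusted p of 0.102, while calling 45 of 14069 genes in all (0.32%), and limma-voom called none. The fitted level was higher in KO for 48 of the 81 genes (59.3%, where 47.2% of all tested genes were higher). The median log2 fold change was 0.09 beside -0.02 for all tested genes. For the hepatocyte-made genes 33 of 49 were higher, with a median of 0.14, and for the genes of other cells 15 of 32, with a median of -0.02. Without KO normal 3, which leaves only KO tumors to set against WT tumors, the hepatocyte-made count was 24 of 49 and the median -0.04. An unadjusted p under 0.05 was found for 3 of the 81 genes on the higher side (F7, Pros1 and Masp2), a class that held 3.91% of all tested genes, and for none on the lower side, which held 2.94%.

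F7 had the smallest p of the 81 genes. It had 118, 137 and 139 CPM in KO tumors 2 and 3 and KO normal 3, against 90.2, 67.3 and 85.9 CPM in WT tumors 1 to 3 and 74.4 and 105.1 CPM in WT normal livers 2 and 3. All 3 KO libraries lay above all 5 WT libraries. The log2 fold change was 0.64 ± 0.17 (SE; edgeR adjusted p = 0.705) and stayed between 0.56 and 0.72 when any 1 library was left out.

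Pros1 encodes protein S, the cofactor of activated protein C in switching off clotting. It had 65.1, 92.4 and 89.5 CPM in KO tumors 2 and 3 and KO normal 3, against 56.4, 49.5 and 62.3 CPM in WT tumors and 75.2 and 59.5 CPM in WT normal livers. The groups overlapped, since KO tumor 2 was below WT normal 2. The log2 fold change was 0.46 ± 0.16 (SE; edgeR adjusted p = 0.705), and 0.30 without KO tumor 3.

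Masp2 encodes the protease that cleaves C4 and C2 in the lectin pathway. It had 266, 292 and 294 CPM in KO tumors 2 and 3 and KO normal 3, against 190.0, 189 and 233 CPM in WT tumors and 231 and 231 CPM in WT normal livers, with no overlap. The log2 fold change was 0.41 ± 0.15 (SE; edgeR adjusted p = 0.705).

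Of the 81 genes, 4 had all KO libraries above all WT libraries (F13b, F7, Masp2 and Serpina1d), or 4.94%, where 3.47% of all tested genes did. Serpina1a and Serpina1c had all KO libraries below, or 2.47%, where 2.76% of all tested genes did. F13b, the carrier subunit of the clot-stabilising factor XIII, had 201, 194 and 217 CPM in KO libraries, against 161, 133 and 163 CPM in WT tumors and 127 and 192 CPM in WT normal livers. The gap between KO tumor 3 and WT normal 3 was small beside the spread within either genotype. With counts scaled by library totals alone, the genes above were C4b, F7, Masp2, Plg, Proc and Serpina1d (7.41%, where 2.76% of all tested genes lay above), and the gene below was Serpina1a (1.23%, where 3.0% lay below).

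Every tested gene of the early classical and lectin pathways had a higher fitted level in KO. This held for 8 of 8 genes, where it held for 47.2% of all tested genes. The median log2 fold change was 0.33, from 0.14 for Mbl1 to 0.50 ± 0.24 (SE) for C4b. No gene of the 8 passed. The fitted level was also higher for all 4 genes of the fibrinogen chains and factor XIII B (median 0.13), for C3 and Cfb (median 0.22) and for the 4 myeloid factors, C1q among them (median 0.09). These 3 groups rested on single libraries. Without KO normal 3 the fitted level was higher for 1 of 4 fibrinogen and factor XIII B genes (median -0.08) and for neither C3 nor Cfb (median -0.06). The myeloid count was 1 of 4 without KO tumor 3 (median -0.26) and also without WT tumor 2 (median -0.07). Some other roles had mostly lower fitted levels in KO, and no gene of them passed. The fitted level was higher for 0 of 4 membrane regulators (median -0.21) and 1 of 6 vessel wall genes (median -0.25). It was higher for 1 of 5 plasminogen activator genes (median -0.63) and 2 of 6 hepatocyte-made terminal components (median -0.23). C4b, the complement protein that Masp2 and C1s cleave, had 1309, 2040 and 1840 CPM in KO libraries, against 1441, 1243 and 1159 CPM in WT tumors and 1060 and 1217 CPM in WT normal livers. KO tumor 2 lay among the WT libraries and the other KO libraries above them. C2, which joins C4b in the C3 convertase, showed the same order, with 121, 191 and 176 CPM in KO libraries against 90.1 to 142.8 CPM in WT libraries. The 6 neutrophil markers also summed to 15.9, 204 and 193 CPM in KO tumors 2 and 3 and KO normal 3, against 21.4 to 32.4 CPM in WT libraries, and Ly6g, one of them, was at 0 in WT normal 2. Their part in the levels of C4b, C2 and the group was not tested. Without WT tumor 2 and WT normal 2 the count for the classical and lectin genes was 7 of 8 and the median 0.17. The count was 8 of 8 under each scaling tried, and reads of C1ra, C1s1 and C4b may be shared with near-identical copies.

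On the lower side, A2m had a WT value that was high in a single library, while Serpina1a had all KO libraries below all WT libraries. A2m, a broad protease inhibitor, had 0.616 to 1.15 CPM in KO libraries, against 107 CPM in WT tumor 2 and 0.422 to 5.89 CPM in the other WT libraries. Its log2 fold change of -4.35 ± 2.03 (SE) became -0.40 without WT tumor 2 and WT normal 2. The thrombin receptor F2r had 29.8, 24.6 and 19.7 CPM in KO libraries against 22.0 to 61.5 CPM in WT libraries, at -0.83 ± 0.38 (SE) and -0.38 without that pair. The adjusted p of A2m and of F2r in edgeR was 0.714.

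**Figure D2:**
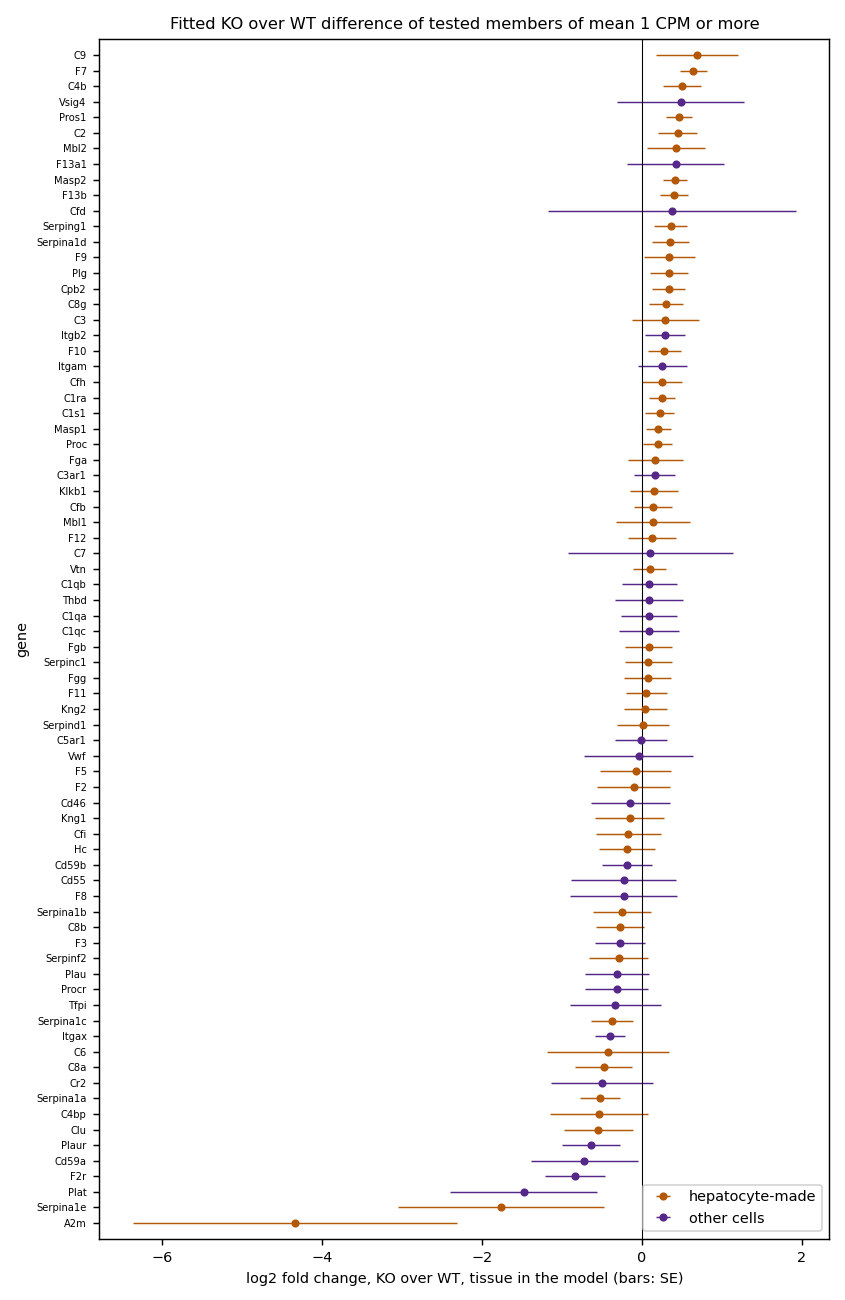
Points are the fitted log2 fold changes of KO over WT with tissue in the model, bars the standard errors, for tested genes with a mean of at least 1 CPM, all but 1. Most hepatocyte-made genes lie within 0.5 of 0, and the widest bars belong to A2m, Cfd and Serpina1e.

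**Figure D3:**
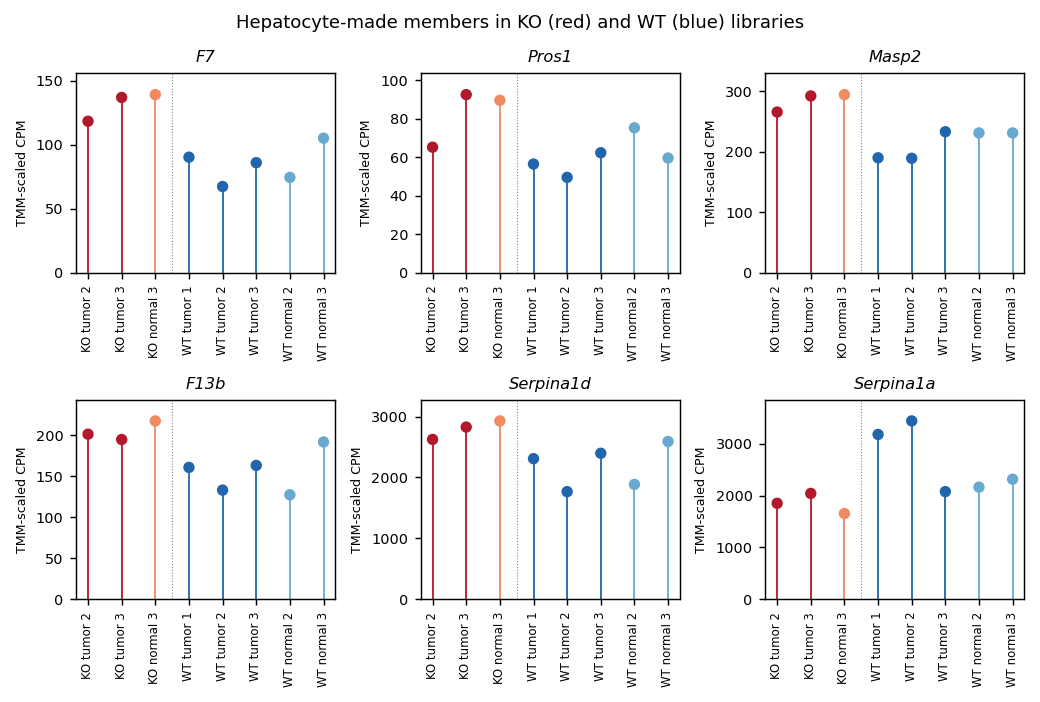
Each point is the CPM of 1 library on an axis from 0, KO left of the dotted line and WT right of it. All 3 KO libraries lie above the 5 WT libraries for F7, Masp2, F13b and Serpina1d and below them for Serpina1a, while Pros1 overlaps.

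Tumors alone were compared as 2 KO tumors against 3 WT tumors. edgeR called 0 of the 81 genes (0.0% of all tested genes), and limma-voom called none of either. DESeq2 called 0 of the 81, while calling 4 of 14718 genes in all (0.0272%). An unadjusted p under 0.05 was reached by F7 alone, at 0.65 ± 0.24 (SE; adjusted p = 0.888), where 1.66% of all tested genes did so on the higher and 1.26% on the lower side. The fitted level was higher in KO tumors for 44 of 81 genes (54.32%, where 49.63% of all tested genes were higher). KO tumors lay above all WT tumors for 8 genes, or 9.88% where 9.77% of all tested genes did, and below for 3 genes, or 3.7% where 7.56% did. With library totals as the scaling, 13 genes lay above (16.0% where 9.65% of all tested genes did) and 1 below (1.23% where 7.46% did). The 8 classical and lectin genes were again all higher in fitted level, with a median of 0.35, and 7 of 8 with a median of 0.21 without KO tumor 3. This comparison shares its libraries with the one over both tissues and adds no independent evidence.

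In normal liver, KO normal 3 alone was set against 2 WT normal livers, with the spread of the lone library taken from the other groups. edgeR called 0 of the 81 genes (0.0% of all tested genes), and so did limma-voom. DESeq2 called 0 of the 81 and 1 of 14718 genes in all (0.00679%). None of the 81 had an unadjusted p under 0.05, where 0.693% of all tested genes did on the higher and 0.713% on the lower side. The fitted level was higher in KO normal for 40 of 49 hepatocyte-made genes, with a median of 0.33, and for 12 of 32 genes of other cells, with a median of -0.27. It was higher for 46.35% of all tested genes. WT normal 2 was the lowest library at 21 of the 49 hepatocyte-made genes (42.9%, where it was so for 14.5% of all tested genes). It also had the lowest Alb level, at 42630 CPM against 73500 to 156400 CPM in the other 7 libraries. Without WT normal 2 the count over all 81 genes was 60, against 52 with it, and their median was 0.18, against 0.19 with it. Scaling by library totals alone moved the median of all tested genes to -0.20 in this comparison, and the median of the 81 genes to 0.02.

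The Serpina1 genes differed from each other in their spread over libraries. The windows of Serpina1d and Serpina1e printed above are 95% identical but lie at different distances from the annotated starts. Serpina1d had a 1.66-fold range over the libraries and Serpina1e a 30.6-fold range. Serpina1e had 284, 1807 and 698 CPM in KO tumors 2 and 3 and KO normal 3, against 2644, 6124 and 331 CPM in WT tumors and 6244 and 204 CPM in WT normal livers. High and low libraries occurred in both genotypes and in both tissues, and the log2 fold change of KO over WT was -1.77 ± 1.29 (SE). Serpina1d had 2624, 2827 and 2928 CPM in KO libraries, against 2307, 1765 and 2396 CPM in WT tumors and 1884 and 2590 CPM in WT normal livers. Serpina1a had 1850, 2041 and 1653 CPM in KO libraries, against 3181, 3443 and 2076 CPM in WT tumors and 2162 and 2316 CPM in WT normal livers. Its log2 fold change was -0.53 ± 0.25 (SE; edgeR adjusted p = 0.714) and that of Serpina1d 0.36 ± 0.23.

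As a share of all Serpina1 counts, Serpina1e made up 2.56% to 13.5% in KO libraries and 1.83% to 38.8% in WT libraries. The highest share was in WT normal 2 (95% Wilson interval 38.6% to 39.0%) and the lowest in WT normal 3 (1.77% to 1.89%). Serpina1b was the largest share in 7 of the 8 libraries, at 41.2% to 48.1%, and was 21.9% in WT normal 2. Reads that fit several of these genes cannot be placed with certainty, and how the deposited counts treated them is not given in the sources used here, so the split between the 5 genes is less certain than their sum. The sum was 11090 to 13410 CPM in KO libraries and 10800 to 23340 CPM in WT libraries.

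**Figure D4:**
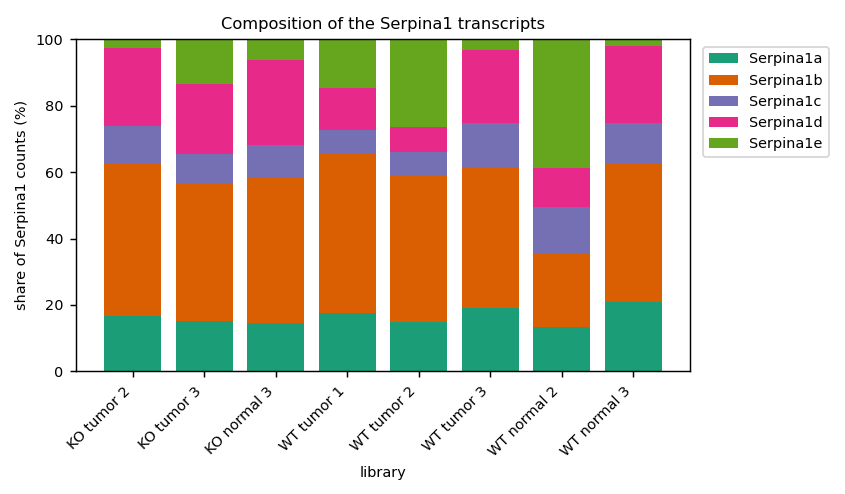
Stacked bars give the share of each Serpina1 gene in the summed Serpina1 counts of a library, in percent, KO libraries on the left. Serpina1e takes 38.8% in WT normal 2 and 1.83% in WT normal 3, while Serpina1d takes 7.56% to 25.6% over the 8 libraries.

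The comparison of tumor with normal liver in WT mice, 3 against 2 libraries, also called no gene of the cascades. edgeR passed 0 of the 81 genes and 0 of all tested genes (0.0%), and limma-voom likewise, and the smallest adjusted p in edgeR was 0.845. DESeq2 passed 0 of the 81 and 13 of 14718 genes in all (0.0883%). F11 was on the higher side with an unadjusted p under 0.05 and C6 on the lower side, where 1.63% and 0.686% of all tested genes were. The fitted level was higher in tumors for 41 of 81 genes (50.62%, where 50.27% of all tested genes were higher). All WT tumors lay above both WT normal livers for C5ar1 and F11, or 2.47% where 6.5% of all tested genes did, and below for C1ra, C8a and C9, or 3.7% where 8.81% did. With library totals as the scaling, 3 genes lay above (3.7% where 4.04% did) and 7 below (8.64% where 10.8% did). F11, the contact factor that activates factor IX, had 159, 127 and 86.8 CPM in WT tumors, against 67.9 and 79.4 CPM in WT normal livers, with a log2 fold change of 0.76 ± 0.30 (SE).

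Of the hepatocyte-made terminal components, 5 of 6 had a lower fitted level in WT tumors, with a median log2 fold change of -0.80. The values of C6, C8a and C8b rested on WT normal 2, those of C9 in part, and that of C8g did not. In KO libraries C6 had 16.3 to 37.0 CPM, C8a 224 to 310 CPM and C9 138 to 274 CPM. In WT mice C6 had 31.6, 12.6 and 27.8 CPM in WT tumors, against 198 and 24.3 CPM in WT normal livers 2 and 3, and its log2 fold change of -2.21 ± 0.85 (SE; edgeR adjusted p = 0.845) was -0.01 without WT normal 2. C8a had 293, 285 and 324 CPM in WT tumors, against 839 and 340 CPM in WT normal livers, and its log2 fold change of -0.97 was -0.17 without that library. C9, which forms the ring of the pore, had 127, 36.0 and 148 CPM in WT tumors, against 339 and 148 CPM in WT normal livers, and its log2 fold change of -1.23 was -0.51 without WT normal 2. C8g, the small subunit of C8, did not follow C8a and had 259 CPM in WT normal 2, and its log2 fold change was -0.48, and -0.56 without that library. The median of the 6 genes was -0.09 without WT normal 2 and -1.27 without WT normal 3. Plasma levels of the terminal components are known to be higher in males in adult mice, while these libraries are labelled 14 to 16 days. Ddx3y was highest in WT normal 2, and the part of sex in these values was not tested.

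WT tumor 2 was high for another set of hepatocyte products. It was the highest library for 34.7% of the tested hepatocyte-made genes, where it was so for 30.4% of all tested genes. C4bp, which holds C4b in check, had 381 to 484 CPM in KO libraries and 1918 CPM in WT tumor 2, against 348 and 514 CPM in the other WT tumors and 300.1 and 357 CPM in WT normal livers. Prothrombin had 4797 CPM there and 1062 to 2174 CPM in the other 7 libraries, and Hc, which encodes C5, had 1606 CPM there and 620.2 to 949.9 CPM elsewhere. The fibrinogen chains were also at their highest there, with Fga at 7244 CPM, Fgb at 9057 CPM and Fgg at 5051 CPM. By FPKM there was 2.27 to 2.40 times as much Fgb as Fgg in KO libraries and 2.22 to 2.53 times in WT libraries. There was 3.47 to 3.54 times as much Fgb as Fga in KO libraries and 3.15 to 4.50 times in WT libraries, lowest in WT tumor 2 and highest in WT normal 2. The same library had the lowest C9, F9 at 76.6 CPM against 181 to 237 CPM elsewhere, and the lowest Mbl1 at 43.4 CPM against 129 to 245 CPM. The fitted level of soluble regulators was higher in WT tumors than in WT normal livers for 5 of 6 genes, with a median of 0.51, and for 4 of 6 with a median of 0.12 without WT tumor 2 and WT normal 2.

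**Figure D5:**
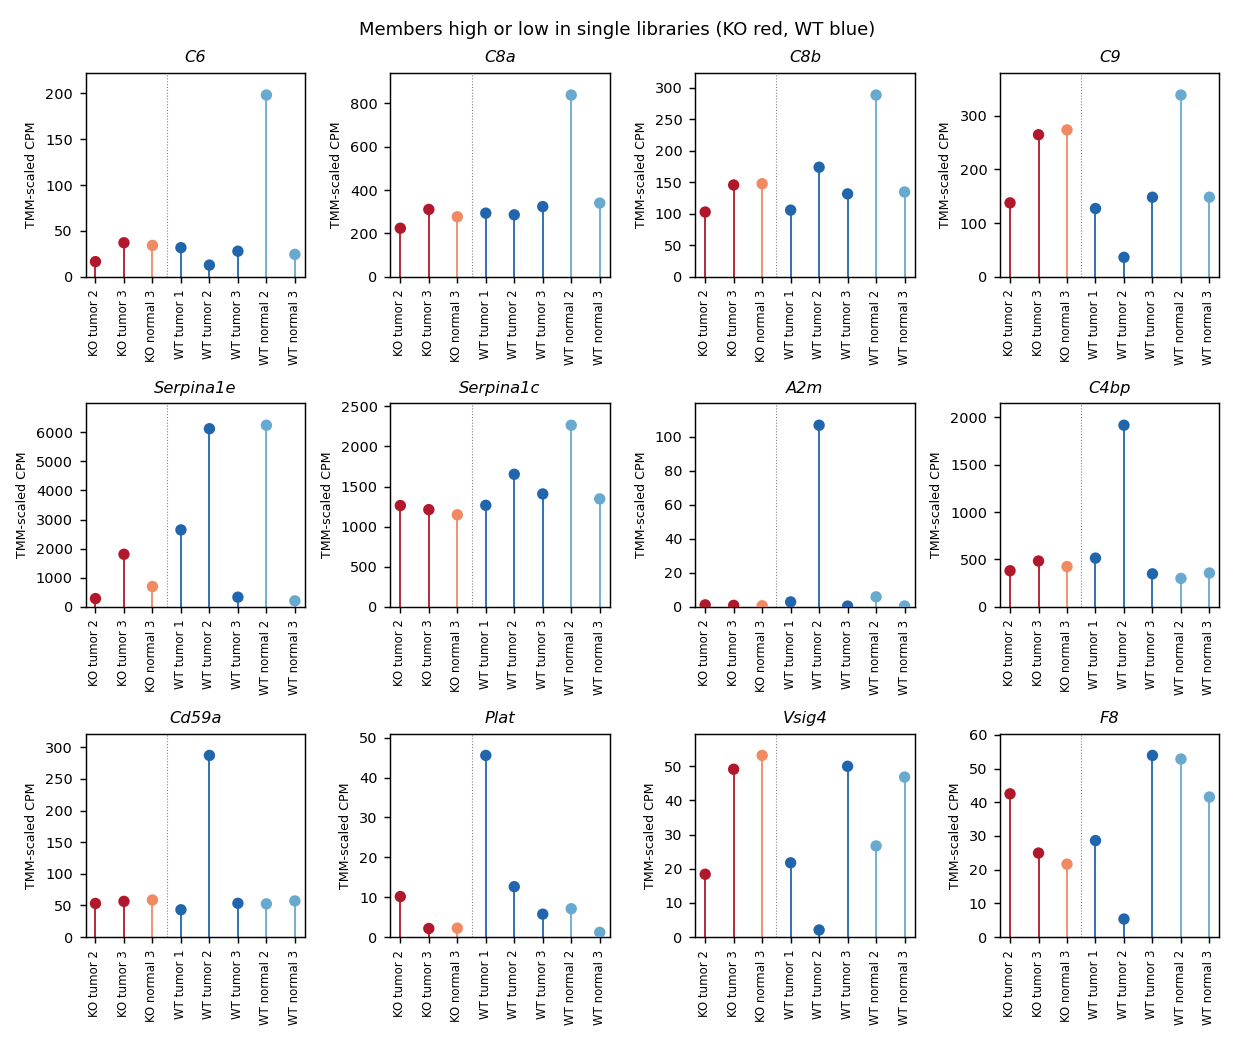
Each point is the CPM of 1 library on an axis from 0, KO left of the dotted line and WT right of it. C6, C8a, C8b and C9 peak in WT normal 2, A2m, C4bp and Cd59a in WT tumor 2 and Plat in WT tumor 1, and Vsig4 and F8 are lowest in WT tumor 2.

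Several genes of other cells were lowest in the libraries where markers of those cells were lowest. In bulk tissue, fewer cells of a type and less RNA per cell cannot be told apart. Vsig4, the complement receptor of resident liver macrophages (Kupffer cells), had 18.4, 49.1 and 53.1 CPM in KO tumors 2 and 3 and KO normal 3, against 21.7, 2.06 and 49.97 CPM in WT tumors and 26.7 and 46.8 CPM in WT normal livers. C1qa was lowest in the same pair of tumors, at 35.0 CPM in KO tumor 2 and 31.5 CPM in WT tumor 2, against 63.1 to 81.2 CPM in the other 6 libraries. The 6 Kupffer cell markers, of which Vsig4 is 1, summed to 132 to 408 CPM in KO libraries and 33.9 to 463 CPM in WT libraries, with the lowest sums in WT tumor 2 and KO tumor 2 and no marker at 0. Their part in the levels of Vsig4 and C1q was not tested.

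Factor VIII, the cofactor of factor IX, is made by sinusoidal endothelial cells of the liver. F8 had 42.5, 24.9 and 21.6 CPM in KO libraries, against 28.6, 5.34 and 53.9 CPM in WT tumors and 52.8 and 41.6 CPM in WT normal livers. The 5 sinusoidal endothelial markers summed to 272 to 395 CPM in KO libraries and 57.1 to 555 CPM in WT libraries, lowest in WT tumor 2, with none at 0; their part in the F8 level was not tested. All 6 vessel wall genes had a lower fitted level in WT tumors than in WT normal livers, with a median of -0.52, against 3 of 6 without WT normal 2, 5 of 6 without WT tumor 2 and 1 of 6, with a median of 0.03, without both. The median was -1.14 without WT tumor 3. Vwf, the platelet-binding carrier of factor VIII, had 25.0, 8.51 and 47.6 CPM in WT tumors, against 115 and 36.6 CPM in WT normal livers.

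The membrane regulators that shield cells from complement differed by gene. Cd59a, which blocks C9 insertion, had 53.1 to 58.5 CPM in KO libraries and 287 CPM in WT tumor 2, against 43.1 to 57.0 CPM in the other WT libraries. Cd55, which breaks up C3 convertases, had 31.9 to 38.5 CPM in KO libraries and 6.23 CPM in WT tumor 2, its lowest value, against 24.8 to 69.8 CPM in the other WT libraries. In the same tumor one regulator was thus at its highest and the other at its lowest. Itgax, a chain of complement receptor 4, had 7.21 to 8.33 CPM in KO libraries and 8.08 to 12.5 CPM in WT libraries, a log2 fold change of -0.40 ± 0.18 (SE; edgeR adjusted p = 0.714).

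Over both genotypes, 5 tumors against 3 normal livers, edgeR called 0 of the 81 genes (0.0% of all tested genes), and none had an unadjusted p under 0.05, where 1.46% of all tested genes did on the higher and 0.299% on the lower side. limma-voom also called none, and DESeq2 called 0 of the 80 cascade genes to which it gave an adjusted p and 5 of 14635 genes in all (0.0342%). No gene had all tumors above or all below the normal livers, which 0.964% and 0.903% of all tested genes did. With library totals as the scaling, Serpina1b had all tumors above (1.23% where 0.713% did) and C8g and Vtn had all tumors below (2.47% where 0.862% did). The plasminogen activator genes were higher in fitted level in tumors for 5 of 5, with a median of 1.16. Among them Plat, tissue plasminogen activator, had 10.1 and 2.13 CPM in KO tumors and 45.5, 12.6 and 5.73 CPM in WT tumors, against 2.22 CPM in KO normal 3 and 7.09 and 1.17 CPM in WT normal livers. Its log2 fold change was 2.05 ± 0.94 (SE; edgeR adjusted p = 0.922). WT tumor 1 was far above the rest, and the log2 fold change was 1.27 without it and 1.0 with a replicate block. The count of these genes was 4 of 5 with a median of 0.63 without WT tumor 2, and 4 of 5 with a median of 0.64 without WT normal 3. The median was 0.67 without WT tumor 3 and 1.95 without WT normal 2. Without KO tumor 2, 4 of the genes were tested and 3 were higher.

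Within KO mice, 2 tumors against 1 normal liver, the fitted level was higher in tumors for 9 of 49 hepatocyte-made genes, with a median of -0.10, and for 21 of 32 genes of other cells, with a median of 0.18. It was higher for 55.49% of all tested genes. Without KO tumor 2 the counts were 28 of 49, with a median of 0.01, and 14 of 31, with a median of -0.03. With a replicate block they were 30 of 49, with a median of 0.03, and 16 of 32, with a median of -0.01. KO tumor 2 also had the highest sums of the muscle markers (1379 CPM), the squamous epithelium markers (401 CPM) and the stellate cell markers (648 CPM) of the 8 libraries; their part in these counts was not tested. edgeR called 0 of the 81 genes (0.0% of all tested genes) and none had an unadjusted p under 0.05, where 0.17% of all tested genes did on the higher and 0.034% on the lower side. The difference between the KO and WT tumor effects was tested in the same fit, and edgeR called 0 of the 81 genes (0.0% of all tested genes). None of the 81 had an unadjusted p under 0.05 for this difference, where 0.211% of all tested genes did on the higher and 0.109% on the lower side. In these 2 comparisons DESeq2 and limma-voom called 0 of the 81 and 0.0% of all genes. The median of the difference between the tumor effects over the 81 genes was -0.13 beside 0.01 for all tested genes, and 0.06 with library totals as the scaling.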

How the data were processed

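The authors deposited whole-number counts per gene, with a pathway annotation, for 21878 genes in 8 mouse liver libraries. They also deposited FPKM values, whose formula is not given in the sources used here. Per the labels' protocols, RNA with an integrity number of at least 7 went into stranded mRNA libraries. Bowtie 0.12.2 and the builds mm8 and mm9 are named in the submitters' processing notes with no role, and the counting method is not given in the sources used here. The authors' deposited tables of 1 library against 1 library hold log2 fold changes, p-values and q-values. They list genes past a fold of 2 with an authors' p-value under 0.05, and are quoted only under other observations. 16 further per-library columns were not used, of which 2 match no sample. A deposited table named for WT tumor 1 and KO tumor 2 was left out. Its column headers name WT tumor 1 and a library that matches no sample. The count and FPKM columns of KO tumor 2 were taken as labelled.

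The test on counts was that of edgeR 4.0.16 under R 4.3.3 (TMM factors, expression filter at a minimum count of 10, robust quasi-likelihood fit) over all 8 libraries and 14726 genes. One model had a mean per group (5 comparisons) and one genotype plus tissue (2 comparisons). P-values were adjusted by Benjamini-Hochberg over all tested genes at 0.05. The common biological coefficient of variation was 0.44 and 0.42. Alternatives were DESeq2 1.42.0 and its size factors, library totals, no filter, limma-voom (limma 3.58.1), limma on log2(FPKM + 1) and log2(FPKM + 0.1), a replicate block, and leaving out each library. Leaving out WT tumor 2 with WT normal 2 was chosen after seeing the data. The scripts were tested on simulated data. Total counts limit precision as the Wilson intervals show, for counting error only.

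The genes, role lists and marker lists were chosen with earlier results of these data known. Named genes were, per comparison, the 8 of smallest p per direction with a mean of at least 1 CPM, the 3 of highest FPKM per role, those with no overlap between groups and those with an outlying library. Of the tested genes, 1 is not reported here by itself and is left out of the figures. Promoter sequences are RefSeq's on GRCm38.p6, and were matched by symbol.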

Additional observations from a re-analysis of the deposited data

Results flagged for a closer look

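Among 126 gene-and-group combinations of 5 libraries, 14 had a highest library whose gap to the next, divided by the whole range, exceeded Dixon's value of 0.71. Chance flags about 1 in 20 unselected groups, a rate that does not apply here. The genes were named partly by their values in these data, and the WT and tumor groups share the WT tumors. The same count over all tested genes was not made, and WT tumor 2 was the highest library for 30.4% of them. In WT tumor 2, A2m at 106.8 CPM, C4bp at 1918 CPM and Cd59a at 287.1 CPM stood apart both among the WT libraries and among the tumors. Also in WT tumor 2, Fgb at 9057 CPM, Fgg at 5051 CPM and Hc at 1606 CPM stood apart among the WT libraries, and F2 at 4797 CPM among the tumors. In WT normal 2, C6 at 198.3 CPM and C8a at 838.7 CPM stood apart among the WT libraries. Plat at 45.54 CPM in WT tumor 1 stood apart in both groups.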

How the results depend on the processing

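The count of called cascade genes stayed at 0 in every comparison that each of the 18 alternatives could give, which was all 7 except without KO normal 3, where it was 4. Those 4 are not all distinct. Without that library, KO over WT is the same comparison as KO tumor over WT tumor. Tumor over normal is then the same as WT tumor over WT normal. Over all genes, limma on log2(FPKM + 1) with no filter called 10 genes for KO tumor over WT tumor, 92 for KO tumor over KO normal, 82 for KO normal over WT normal and 83 for the difference between the tumor effects, and edgeR without KO tumor 2 called 2 for KO over WT. The median log2 fold change of the tested cascade genes was less steady. With library totals it was -0.16 for WT tumor over WT normal, -0.080 for tumor over normal, 0.022 for KO normal over WT normal and 0.056 for the difference between the tumor effects, a scaling that moved the median of all tested genes to -0.15, -0.067, -0.20 and 0.23. With log2(FPKM + 1) it was -0.076 for WT tumor over WT normal, -0.039 for tumor over normal, 0.027 for KO normal over WT normal and 0.077 for the difference, with and without the filter. With log2(FPKM + 0.1) it was -0.10 for WT tumor over WT normal, -0.063 for tumor over normal, 0.055 for KO normal over WT normal and 0.020 for the difference. Leaving out 1 library gave 0.011, without KO normal 3, to 0.17, without KO tumor 2, for KO over WT. It gave -0.0061 to 0.14 for WT tumor over WT normal and -0.039 to 0.077 for tumor over normal, both lowest without WT tumor 2. It gave -0.20 to 0.10 for KO tumor over WT tumor, -0.23 to 0.010 for KO tumor over KO normal and -0.30 to -0.012 for the difference, with the lowest value of each without KO tumor 3. The difference was -0.28 without WT normal 3. Single genes that turned without WT tumor 2 and WT normal 2 were C6 (0.30), Vwf (0.0051) and C7 (0.41) in WT tumor over WT normal, and Vwf (0.20) and C7 (0.34) in tumor over normal. Leaving out 1 library, C8b ran from -1.07 to 0.024 in WT tumor over WT normal and C7 from -2.08 to 0.064 in tumor over normal, both highest without WT normal 2, and A2m from -0.37, without WT tumor 2, to 3.59 in tumor over normal. The cause was not tested beyond these omissions. The replicate numbers were not taken as pairs, since the labels give no shared animal. After each group's mean was subtracted, the 2 same-numbered WT pairs had r = 0.20 and 0.24 across genes. With 2 WT normal livers, the other-numbered pairs then take the same values with the opposite sign (-0.20 and -0.24). These r values therefore cannot decide whether the numbers mark pairs. By raw correlation of log2 CPM, WT tumor 3 was most like WT normal 3 (0.990) and KO tumor 3 most like KO normal 3 (0.982), while WT tumor 2 was most like WT tumor 1 (0.93). With a replicate block, 0 cascade genes were called and the medians were -0.01 for KO tumor over WT tumor, 0.24 for KO normal over WT normal, 0.09 for WT tumor over WT normal, 0.02 for KO tumor over KO normal, -0.07 for the difference, 0.04 for KO over WT and 0.07 for tumor over normal. DESeq2 called 45 genes in all for KO over WT where edgeR called 0.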

Other observations

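In the authors' deposited table of WT tumor 2 against WT normal 2, 11 of the 88 cascade genes stood among 1001 listed genes, out of 21878 genes counted. The authors' deposited table gave log2 fold changes of 4.19 for A2m (authors' q-value 0.00852), -5.92 for C7 (0.0135), -3.98 for C6 (0.0362), -3.75 for Vwf (0.0257), -3.69 for Vsig4 (0.0422) and -3.30 for F8 (0.0444). The q-value in the authors' deposited table was above 0.05 for the other 5, with 2.46 for Cd59a (0.653), -3.12 for Cd55 (0.0677), -3.02 for Tfpi (0.179), -3.23 for C9 (0.287) and no finite value for Cfd (0.567). In the authors' deposited table of WT tumor 3 against WT normal 3, 2 of the 88 cascade genes stood among 270 listed genes, out of 21878 counted. These were Plat at 2.31 (authors' q-value 0.0184) and Cfd with no finite value. In the authors' deposited table of KO tumor 3 against KO normal 3, 1 of the 88 cascade genes stood among 317 listed genes, out of 21878 counted. This was Serpina1e at 1.36 (authors' q-value 1.44e-09). These values compare 1 library with 1 library and have no replicate check.

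C7, a terminal component made by stromal cells, and Cfd, the fat cell protease that activates factor B, were scarce in every library. C7 had 1.83 to 4.88 CPM in KO libraries, against 13.5 CPM in WT normal 2 and 0.222 to 4.22 CPM in the other WT libraries. Cfd had 0.244 to 5.59 CPM in KO libraries and 0 to 3.74 CPM in WT libraries, with no count in WT tumor 2 and WT normal 3. The skeletal muscle markers, which are foreign to liver, summed to 1379 CPM in KO tumor 2 and 456.5 CPM in KO normal 3, and the squamous epithelium markers to 401 CPM in KO tumor 2. Serpinb2, a serpin of keratinocytes and macrophages, had 1.81 CPM in KO tumor 2, no count in the other KO libraries and at most 0.362 CPM in WT libraries.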
